A study of Mus musculus with 4 samples.

Results

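The Ifi200 family, also called the HIN-200 or PYHIN family, was followed through cultured skin fibroblasts with and without the metalloprotease ADAM9. The members described are the 5 genes Ifi202b, Ifi203, Ifi204, Ifi205 and Aim2, on an array whose probe sets name 18193 genes singly. Ifi205 is named only together with other family genes. They were chosen on the large knockout against wild-type difference already known for Ifi202b, with its relatives added by name, so the difference of Ifi202b is given here as a description without a p-value and no member's difference is used as support. Of 45037 probe sets that were not array controls, 10 named a member. Among these, 4 named 1 gene and 6 named several genes, and 7 further probe sets named other genes of the family alone (Mndal, Ifi207, Ifi209 and Ifi213).

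Proteins of this family bind DNA through a HIN domain, and most carry a PYRIN domain with which they assemble with other proteins. AIM2 senses DNA in the cytosol and recruits the adaptor ASC to activate caspase-1, whereas p202, the product of Ifi202b, has HIN domains but no PYRIN domain and can hold AIM2 back. The genes are induced by interferon, lie side by side on mouse chromosome 1, and the level of Ifi202b is known to differ among inbred mouse strains.

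The cells were dermal fibroblasts isolated from newborn mice at postnatal day 1. They were either adam9 -/- (n = 2 isolations) or adam9 +/+ (n = 2), both were left untreated, and each isolation was measured on 1 array. The labels give no strain, sex or allele beyond this, and do not say whether an isolation pooled animals, so a strain that differed with the genotype cannot be told apart from it. P-values measure the spread between isolations only, which may be technical. Having 4 arrays in all limits the precision.

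Values are the deposited log2 values per probe set, with array medians of 4.83 to 4.87, and they are compared within a probe set only, since probe sets differ in how strongly they bind. The mean over the 4 arrays was above 4.17, the 40th percentile of all probe-set means, for 8 of the 10 member probe sets. Both Ifi202b probe sets passed this level through the wild-type arrays alone. Adam9 read 8.33 and 8.55 in the knockout and 11.58 and 11.70 in the wild type. The sources used here do not say whether its probe set lies in the deleted part, outside which it would not check the labels. The genotypes also differed in sex-linked RNA. Xist read 10.38 and 10.40 in the knockout and 4.29 and 4.32 in the wild type, 6.09 log2 units higher in the knockout. The Y-linked Eif2s3y, Kdm5d and Uty differed by -6.54, -5.02 and -4.69 (knockout minus wild type), with all knockout values under 4.17. Sex and genotype therefore cannot be told apart here. Fibroblast markers fixed for the label had high medians in every array, 12.02 to 12.61 over 12 genes, but their level was not even. The knockout was higher for 10 of the 12, and 0 passed the limma test. Lum, Pdgfra and Fbln1 were higher by 1.54, 1.16 and 1.20 with no overlap. Leaving out wild-type isolation 2 reduced these differences to 0.41, 0.37 and 0.41. That array had the lowest summed linear level of the markers (75026), every other array at least 98534. Their part in the members' differences was not tested. The array of wild-type isolation 1 stood apart in macrophage and leukocyte markers, as given below beside the members they touch.

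In the RefSeq gene table of assembly GRCm38.p6, made from C57BL/6J mice, the family runs from Aim2 to Ifi205 as 14 genes, of which 13 are protein-coding. Ifi202b lies between Ifi203 and Ifi205. Promoter sequence was matched for 12 family genes, among them 4 of the 5 members. The sequences are shown because the family is known to respond to interferon through elements of this kind. They are those of the reference strain and not of the cells measured. Whether the promoters differed between the genotypes was not tested. Each line gives the 250 bases before the annotated start, 5′ to 3′, from RefSeq (GRCm38.p6), for Ifi202b, for the genes on either side of it, and for Mndal. Capitals mark the motif GAAANNGAAA, the core of an interferon-stimulated response element, searched on both strands without other motifs.
Ifi202b, chr1:173982845-173983094, minus strand: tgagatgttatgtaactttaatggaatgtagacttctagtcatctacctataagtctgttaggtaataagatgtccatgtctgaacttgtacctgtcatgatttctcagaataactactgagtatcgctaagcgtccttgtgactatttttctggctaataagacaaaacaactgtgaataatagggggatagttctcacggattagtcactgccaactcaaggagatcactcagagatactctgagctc
Ifi205, chr1:174031756-174032005, minus strand: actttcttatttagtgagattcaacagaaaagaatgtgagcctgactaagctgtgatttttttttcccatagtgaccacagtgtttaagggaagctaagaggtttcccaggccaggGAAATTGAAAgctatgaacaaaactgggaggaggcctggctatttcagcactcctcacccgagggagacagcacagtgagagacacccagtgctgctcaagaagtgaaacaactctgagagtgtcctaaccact
Ifi203, chr1:173942493-173942742, minus strand: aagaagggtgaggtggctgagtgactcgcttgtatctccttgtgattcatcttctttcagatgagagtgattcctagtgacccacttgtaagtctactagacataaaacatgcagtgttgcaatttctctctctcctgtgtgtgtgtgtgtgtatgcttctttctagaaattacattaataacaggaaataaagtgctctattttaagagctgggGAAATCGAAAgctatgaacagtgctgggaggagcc
Mndal, chr1:173880188-173880437, minus strand: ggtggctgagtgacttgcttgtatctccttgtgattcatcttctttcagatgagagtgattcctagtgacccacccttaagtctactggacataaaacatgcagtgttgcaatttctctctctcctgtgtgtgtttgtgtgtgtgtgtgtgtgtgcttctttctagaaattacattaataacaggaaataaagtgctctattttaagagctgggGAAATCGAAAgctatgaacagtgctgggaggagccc

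The motif was found in 10 of the 14 family windows (71.4%), which belong to 12 genes, against 2.98% of all 32851 promoter windows of the same length in the table. By gene, 9 of the 12 had it in at least 1 window. Family promoters share ancestry, so these are not independent matches. Ifi202b, Aim2 and Ifi209 had no match, which says only that these letters are not in this window of the reference strain. The Ifi205 window held it in the form GAAATTGAAA, 134 bases before the start, and the Ifi203 window in the form GAAATCGAAA, 35 bases before the start. Ifi203 has a second annotated start whose window held no match. The printed Ifi203 and Mndal windows share an unbroken run of 96 identical bases.

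Ifi202b was the member with low values in the knockout, and both of its probe sets showed this. The probe set 1421551_s_at, which names Ifi202b alone, read 3.60 and 3.46 in knockout isolations 1 and 2, against 9.13 and 8.49 in wild-type isolations 1 and 2. Both knockout arrays were low and both wild-type arrays were high, with a gap of 4.89 log2 units between the nearest arrays. The knockout mean was 3.53 ± 0.095 (SD, n = 2) and the wild-type mean 8.81 ± 0.453 (SD, n = 2), a difference of -5.28 (SE 0.241 in the limma fit over all probe sets), or 38.7-fold lower.

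The second probe set, 1457666_s_at, names Ifi202b together with an unplaced locus, LOC100044068. It read 2.76 and 2.64 in the knockout, against 10.01 and 9.32 in the wild type. Again the genotypes were far apart, by 6.55 log2 units at the nearest pair. The means of 2.70 ± 0.0898 (SD, n = 2) and 9.66 ± 0.49 (SD, n = 2) differed by -6.96 (SE 0.256), or 125-fold. The knockout values of both probe sets lay under the level of 4.17. No detection calls were used here, so these folds depend on an unstated background and the probe sets do not show whether any Ifi202b RNA was left. Ordered by their difference, 1457666_s_at was number 2 and 1421551_s_at number 5 from the lowest of the 45037 probe sets. In bulk cultures such as these, fewer cells of a type and less RNA per cell cannot be told apart.

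**Figure D1:**
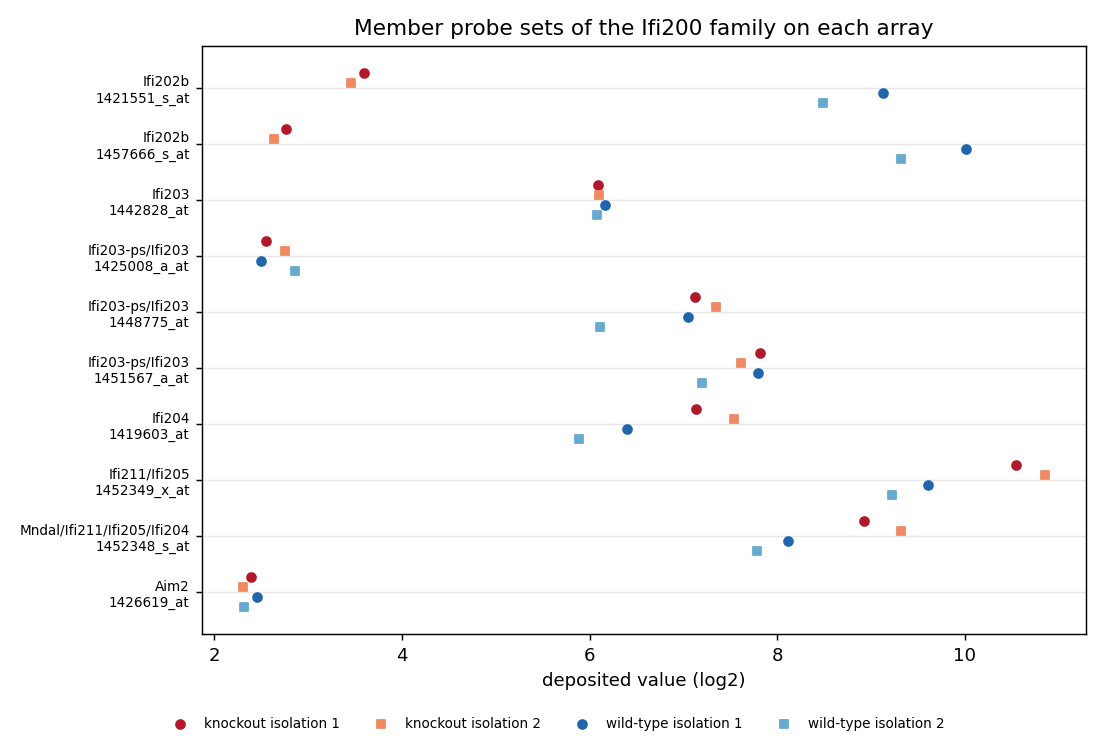
Deposited log2 value (horizontal axis) of the 10 member probe sets (rows, with the genes each names; locus identifiers without a gene name are left out of the row labels) on the 4 arrays, 1 point an array. The rows of Ifi202b have both knockout arrays under 4 and both wild-type arrays over 8, while the 3 rows that name Ifi204 or Ifi205 have the knockout arrays on the right.

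Ifi203, which encodes a nuclear family protein and lies next to Ifi202b, did not share this pattern. Its own probe set, 1442828_at, read 6.09 and 6.10 in the knockout arrays and 6.16 and 6.08 in the wild-type arrays. The 4 values lay within 0.08 of each other and the genotypes overlapped (difference -0.03, SE 0.116). Another 3 probe sets name Ifi203 with the pseudogene Ifi203-ps and unplaced loci, and so cannot be assigned to 1 gene. Of these, 1448775_at read 7.12 and 7.35 in the knockout and 7.05 and 6.11 in the wild type, a difference of 0.65 (SE 0.334) that rests on the low value of wild-type isolation 2. Without that array the difference was 0.19, and without wild-type isolation 1 it was 1.12. The probe set 1451567_a_at read 7.82 and 7.61 against 7.80 and 7.20 (difference 0.22, SE 0.235), and its genotypes overlapped. The remaining one, 1425008_a_at, stayed between 2.50 and 2.86 on all arrays, under the level of 4.17.

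Ifi204 encodes p204, a DNA sensor related to human IFI16 and a known partner of the retinoblastoma protein, and it stood higher in the knockout. Its probe set 1419603_at read 7.13 and 7.54 in the knockout arrays and 6.40 and 5.89 in the wild-type arrays. Both knockout arrays lay above both wild-type arrays, by 0.73 at the nearest pair. The knockout mean of 7.34 ± 0.295 (SD, n = 2) exceeded the wild-type mean of 6.14 ± 0.358 (SD, n = 2) by 1.19 (SE 0.242), or 2.29-fold.

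Ifi205, another interferon-induced nuclear protein gene, has no probe set of its own on this array. The probe set 1452349_x_at, which names Ifi211 and Ifi205, read 10.55 and 10.86 in the knockout and 9.61 and 9.23 in the wild type. The genotypes did not overlap, with 0.94 between the nearest arrays, and the means of 10.71 ± 0.219 (SD, n = 2) and 9.42 ± 0.269 (SD, n = 2) differed by 1.29 (SE 0.196), or 2.44-fold. The probe set 1452348_s_at, which names Mndal, Ifi211, Ifi205 and Ifi204 together, read 8.93 and 9.32 against 8.12 and 7.79. It differed by 1.17 (SE 0.202), again with no overlap. These probe sets can each take up RNA of several of the genes they name, so it cannot be said from them which of Ifi204, Ifi205, Ifi211 and Mndal stood higher, and they are not separate measurements of separate genes.

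Aim2, the inflammasome sensor, was dim in all cultures. Its 1 probe set, 1426619_at, read 2.39 and 2.30 in the knockout arrays and 2.45 and 2.32 in the wild-type arrays. All 4 values were under the level of 4.17 and the genotypes overlapped (difference -0.04, SE 0.125), so a change of Aim2 could not be measured here.

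Among the 10 member probe sets, then, 2 were lower in the knockout by at least 1 log2 unit with no overlap, both of Ifi202b, against 0.986% of all probe sets. In the other direction 3 were higher by this measure, the one of Ifi204 alone and those naming Ifi205 together with other family genes, against 1.35% of all probe sets, a count that was 1 without knockout isolation 2. The remaining 5, all 4 naming Ifi203 and that of Aim2, did neither. Of the 8 member probe sets that do not name Ifi202b, 0 passed an adjusted p of 0.05 in the limma fit, where 0.0244% of all probe sets passed on the lower side and 0.00666% on the higher side. At an unadjusted p under 0.05 there were 3 of these 8, against 9.0% of all probe sets. Because the members were proposed with this contrast known, nothing is read from these shares. With any 1 array left out, and with a block for the isolation number, 0 of all 45037 probe sets passed.

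**Figure D2:**
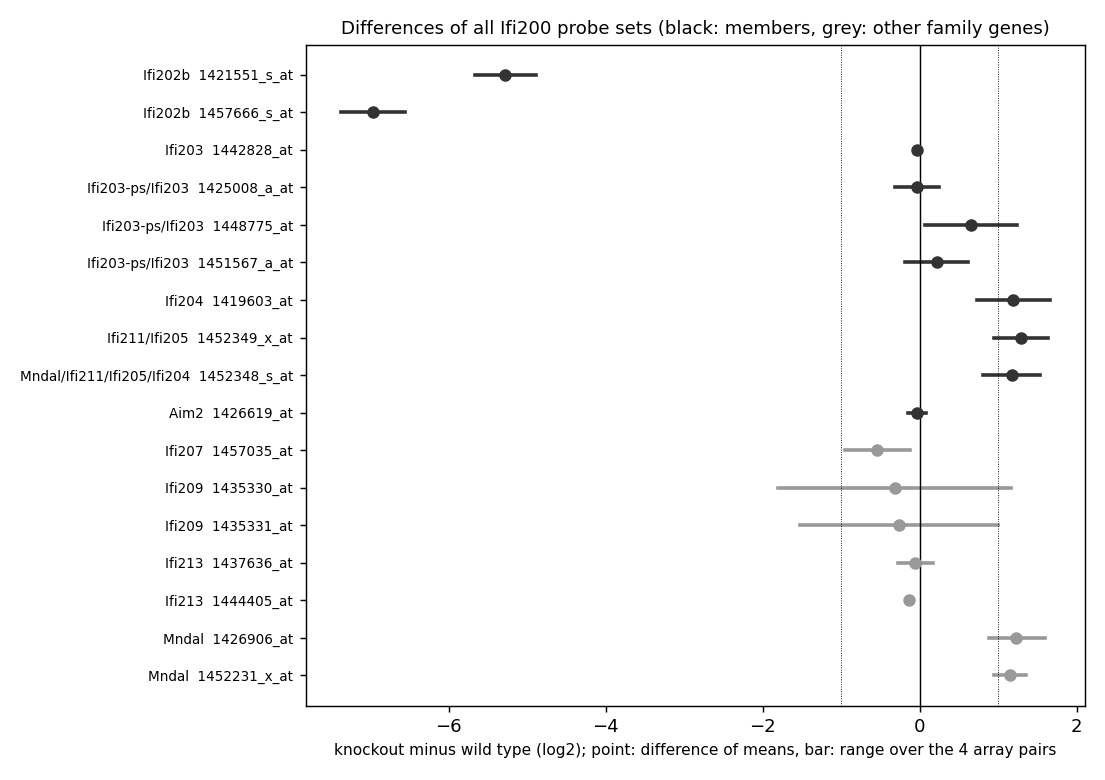
Knockout minus wild-type difference (log2, horizontal axis) of the 17 Ifi200 probe sets, with the difference of group means as a point and the range over the 4 knockout and wild-type array pairs as a bar; members are black, other family genes grey, and dotted lines mark 1 and -1. The bars of both Ifi202b probe sets lie below -4, and those of the probe sets naming Ifi204, Ifi205 or Mndal lie above 0.

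Of the 4 other family genes with a probe set of their own, 1 stood higher in the knockout without overlap. Mndal, an interferon-induced family gene between Ifi204 and Ifi203, did so by both of its probe sets. The probe set 1426906_at read 8.49 and 8.68 in the knockout and 7.61 and 7.10 in the wild type (difference 1.23, SE 0.211, limma adjusted p = 0.265). The probe set 1452231_x_at read 9.16 and 9.22 against 8.21 and 7.86 (difference 1.15, SE 0.162, limma adjusted p = 0.2). Neither pair of groups overlapped and neither passed the test. Ifi207 (2.49 and 2.49 against 3.44 and 2.63) and both probe sets of Ifi213 (2.31 to 3.12) were under the level of 4.17 on all arrays.

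Ifi209, the fourth of these genes, followed the isolation number instead of the genotype. The probe set 1435330_at read 4.39 in knockout isolation 1 and 4.48 in wild-type isolation 1, but 5.65 and 6.20 in isolation 2 of each. The probe set 1435331_at read 3.53 and 3.97 in isolation 1 and 4.98 and 5.05 in isolation 2. Both were therefore higher in isolation 2 in both genotypes, by 1.08 to 1.71 log2 units. Ifi209 was singled out after its values were seen, and nothing in the labels says that isolations with the same number were made together.

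The isolations of 1 genotype gave a comparison that did not use the knockout against wild-type difference. With 1 array on each side it has no test, and a difference of at least 1 log2 unit was counted. Between the wild-type isolations 0 of the 10 member probe sets were apart by this much, where 1.81% of all probe sets were. Between the knockout isolations 0 of 10 were, where 2.13% of all were. Ifi202b was higher in wild-type isolation 1 than in isolation 2 by 0.64 and 0.69 (1421551_s_at and 1457666_s_at), and by 0.13 in knockout isolation 1 on both probe sets. In all, 9 of the 10 member probe sets were higher in wild-type isolation 1 than in wild-type isolation 2, against 47.4% of all probe sets. These differences ran from 0.08 for 1442828_at to 0.94 for 1448775_at, and several of the probe sets name the same genes. Between knockout isolations 1 and 2 the direction was mixed, from -0.42 for 1419603_at to 0.21 for 1451567_a_at.

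Wild-type isolation 1 was also the array rich in macrophage RNA. Of 20 macrophage and leukocyte markers, 19 were highest there, each by at least 1 log2 unit above all other arrays. Their summed linear level was 12219 in wild-type isolation 1, 741 in wild-type isolation 2, and 667 and 540 in knockout isolations 1 and 2. Ctss, a lysosomal protease of macrophages, read 10.07 in that array and 3.88 to 4.58 in the others. C1qb, a subunit of complement C1q, read 9.46 there and 3.37 to 3.77 in the others. Markers of other skin cells had array medians of 3.52 to 4.40 for 8 keratinocyte genes, 3.98 to 4.21 for 8 endothelial genes and 3.61 to 4.03 for 6 melanocyte genes. On all 4 arrays 3 of the keratinocyte genes (Krt5, Krt10 and Epcam), 4 of the endothelial genes (Eng, Kdr, Tek and Cldn5) and 2 of the melanocyte genes (Pmel and Sox10) lay above the level of 4.17. The keratinocyte gene Dsp, which encodes desmoplakin, read 3.06 and 3.55 in the knockout and 4.84 and 6.75 in the wild type (difference -2.49, SE 0.653, limma adjusted p = 0.421, and -1.53 without wild-type isolation 2). Its genotypes did not overlap, and its part in the members' differences was not tested. No marker list on an array has values of 0, so a low level is not an absence. In wild-type isolation 2, where the markers were near the knockout level, Ifi202b read 8.49 and 9.32. Without wild-type isolation 1 its differences were -4.96 and -6.62. The 3 probe sets naming Ifi204 or Ifi205 were highest in the knockout arrays and lowest in wild-type isolation 2, all of them poor in these markers. Without wild-type isolation 1 they differed by 1.45 (1419603_at), 1.48 (1452349_x_at) and 1.33 (1452348_s_at). All differences without that array rest on 1 wild-type array. The part of macrophage RNA in the members' differences was not tested.

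**Figure D3:**
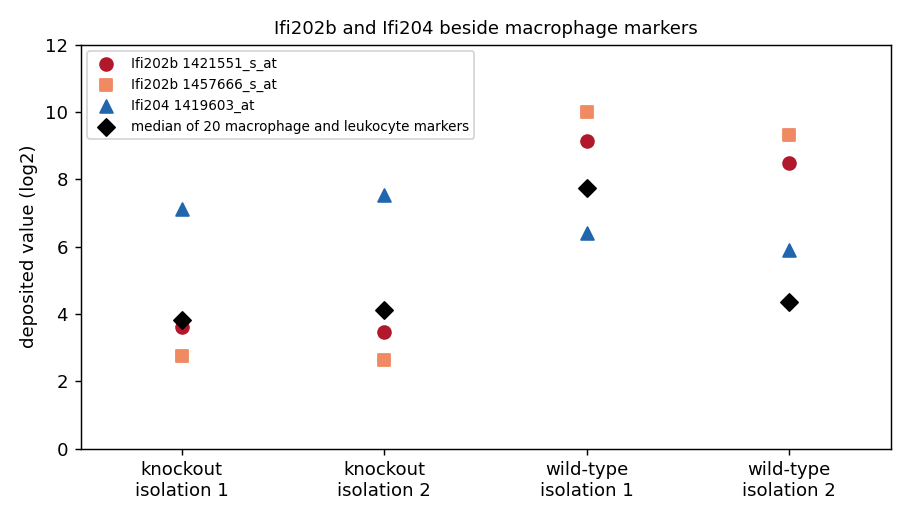
Deposited log2 values (vertical axis) of both Ifi202b probe sets and of Ifi204 on the 4 arrays, with the median of 20 macrophage and leukocyte markers as black diamonds. The marker median is 7.73 in wild-type isolation 1 and 4.35 in wild-type isolation 2, while Ifi202b is high in both.

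No interferon-stimulated gene of the list passed the test singly. Of 41 interferon-stimulated genes listed, 36 were measured, and 0 of them passed the limma test, where 0.0495% of all 18193 genes did. At an unadjusted p under 0.05 there were 7 of 36, against 10.8% of all genes. Their median difference was 0.05, with 20 positive and 16 negative, beside a median of 0.00 over all genes. The genes with the largest differences pointed opposite ways. Ifit3, an antiviral RNA-binding protein gene, read 9.22 and 7.99 in the knockout and 9.73 and 9.48 in the wild type (means 8.60 and 9.61, SE 0.424 of the difference, limma adjusted p = 0.588). Oas1a, an oligoadenylate synthetase, read 8.81 and 8.41 against 7.85 and 7.47 (difference 0.95, limma adjusted p = 0.369). Among 7 genes of interferon receptors and their kinases 0 passed, with a median of 0.04 and 1 at an unadjusted p under 0.05, against the same shares of all genes. Jak2 and Ifngr1 differed the most, by 0.46 and 0.38.

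Genes that act with the family were also tested, and their counts stand against 0.0495% of all genes passing and 10.8% of all genes at an unadjusted p under 0.05. Of 11 inflammasome and pyroptosis genes 0 passed (median 0.02, 2 at an unadjusted p under 0.05). The pore-forming gasdermins Gsdme and Gsdmd differed by 0.99 (SE 0.172, limma adjusted p = 0.267) and 0.87 (SE 0.186, limma adjusted p = 0.35), with no overlap between genotypes. Of 13 genes of cytosolic DNA sensing 0 passed, with a median of 0.19, 10 of them positive and 6 at an unadjusted p under 0.05. Cgas, the cyclic GMP-AMP synthase, read 6.74 and 7.59 in the knockout and 6.39 and 6.12 in the wild type, and Zbp1, a sensor of Z-form nucleic acid, read 6.16 and 5.71 against 5.32 and 4.91. Of 13 reported partners and targets of p202 and its relatives 0 passed (median 0.12, 5 at an unadjusted p under 0.05). The retinoblastoma family genes Rbl1 and Rb1 differed by 1.67 (SE 0.409) and -0.93 (SE 0.28), with limma adjusted p of 0.403 and 0.476.

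Genes around the cluster were compared to see how far along the chromosome differences reached. Of the 40 nearest measured genes, 20 on each side, 0 passed the limma test and 3 had an unadjusted p under 0.05, where 0.0495% and 10.8% of all genes did. Their median difference was 0.04. Many of the 40, such as Fcer1a and Crp before the cluster and Mptx1 and Rgs7 after it, were dim. These stayed under the level of 4.17 on all arrays, so a change of them could not be measured. With such dim genes counted, 38 of 40 differed by less than 1 log2 unit, which therefore does not show how far differences reached. The exceptions were Exo1, an exonuclease of DNA repair that is induced in S phase, at 2.65 (5.45 and 7.78 against 4.38 and 3.56), and Slamf9, a receptor of immune cells, at -1.03 (5.02 and 5.22 against 6.77 and 5.53). Slamf9 was highest in wild-type isolation 1, the array rich in macrophage markers, whose part in this difference was not tested.

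**Figure D4:**
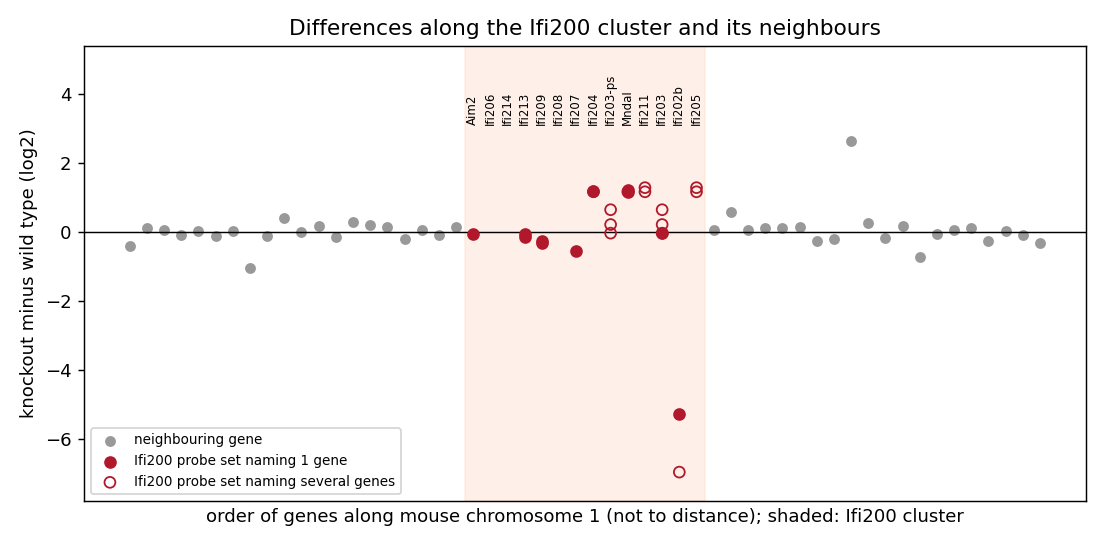
Knockout minus wild-type difference (log2, vertical axis) of the Ifi200 probe sets (red, in the shaded cluster; filled where the probe set names 1 gene, open where it names several, drawn at each family gene it names) and of 20 genes on each side (grey), in the order of the genes on chromosome 1 and not to distance. The points at -5.28 and -6.96 are those of Ifi202b, and 38 of the 40 grey points lie between -1 and 1.

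Genes with the pattern most like that of Ifi202b were looked up by the Euclidean distance of values centred on their mean over the 4 arrays, among 18185 genes outside the family. The nearest to 1457666_s_at, which the rule took as the Ifi202b probe set with the higher mean over the 4 arrays although both means were nearly equal, were the Y-linked Eif2s3y (distance 0.72), Kdm5d (1.95) and Uty (2.35), followed by Pla2g7, which inactivates platelet-activating factor (2.88), and the zinc finger gene Zfp874a (3.38). Nearest to Ifi204 were Il31ra, a cytokine receptor (0.13), Mcc (0.16), the cell cycle phosphatase Cdc25b (0.17), Klhl23 (0.17) and Zfand4 (0.18), with differences of 1.02 to 1.24. These distances rest on 4 arrays and describe them only. They were not scaled, so genes with the largest drop in the knockout had to come out nearest to Ifi202b. Ifi202b itself was chosen on that drop, and nothing is read from the names.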

How the data were processed

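The authors deposited 1 log2 value per probe set and array, made with Affymetrix Expression Console per the submitters' processing notes. The sources used here give no version, algorithm or log base. The base 2 was taken from the range of the values. Of 45101 probe sets, 64 array controls were left out. Platform annotation named 1 gene for 34945 of the rest, several for 932 and none for 9160. Names were matched by Entrez identifier to RefSeq (GRCm38.p6), which gave names, gene order and promoters. No filter on low values was applied.

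Genotypes were compared over all 45037 probe sets with limma 3.58.1 in R 4.3.3 (lmFit, eBayes, 2 residual and 2.72 prior degrees of freedom), adjusted by Benjamini-Hochberg. The procedure was tested on simulated data. A listed gene was read by its single-name probe set with the highest mean. Text names up to 4 passing genes a list, or, where none passed, the 2 that differed most. Beyond this rule, Pdgfra was named among the fibroblast markers, and some dim neighbours were named as examples. All other family genes with a probe set of their own were also named. Genes of the endothelial and melanocyte lists, and the keratinocyte genes other than Dsp, were named by their level only. Members and lists were chosen with earlier results of these data known.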

Additional observations from a re-analysis of the deposited data

How the results depend on the processing

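Median centring, quantile normalization and cyclic loess moved the difference of each of the 10 member probe sets by less than its pooled SD between isolations (30 of 30 values). The deposited arrays already had medians of 4.83 to 4.87. The median difference over all probe sets went only from -0.003 to between 0.001 and 0.017 under these settings. They could hardly move a member, so the count says little about stability. With an array left out, the Ifi202b differences were -5.60 to -4.96 and -7.31 to -6.62. In groups of 2, leaving out 1 array cannot move a difference by more than that SD, and a block returns the same difference, so neither says anything about stability. The count of members higher by this measure was 3, and 1 to 4 with an array left out, the lowest without knockout isolation 2 and the highest without wild-type isolation 1; these counts, and those between isolations, were added after seeing the data. The number of called probe sets, 14 of all, was 22 with median centring, 9 with 1 probe set a gene above the 40th percentile (fewer tested), and 0 with any 1 array left out. With the isolation number as a replicate block 0 were called. The deviations of same-numbered isolations correlated at 0.051 and the labels state no pairing, so the numbers were not used as pairs. Counts for the interferon, pathway and neighbour lists were 0 in each setting run. At most 22 of all probe sets were called in any setting, so these counts do not show how the lists depend on the processing. Signal over background limits Aim2 and the knockout values of Ifi202b.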
